A study of Mus musculus with 310 samples.

Results

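The genes described here are the solute carriers that move amino acids, lactate, pyruvate and related small acids across membranes, measured in single cells of mouse tail epidermis. They were taken by symbol, as every gene of the count table whose name begins with Slc1a, Slc3a, Slc7a, Slc16a, Slc36a, Slc38a or Slc43a and goes on with a number. The rule found 40 of 14068 genes: 6 of the Slc1 family, 1 of Slc3, 9 of Slc7, 11 of Slc16, 2 of Slc36, 9 of Slc38 and 2 of Slc43. One of the 9 Slc7 symbols, Slc7a6os, is a neighbour of Slc7a6 named for the opposite strand and is not itself a transporter.

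The study asked how long cells of a stem cell lineage keep a memory of wound repair. The cells are tdTomato-positive keratinocytes of the population L1, sorted from tail skin of mice that carry Lrig1-EGFP-ires-CreERT2 and Rosa26-fl/STOP/fl-tdTomato. All mice had hydroxytamoxifen put on the tail skin once, ahead of any wounding. The label thus marks cells in which Lrig1 was active at that time, and their progeny, and it does not mark a single cell type. The study's long-term experiment compared wounded mice with an age-matched group kept unwounded. The strain was a mix of CBA and C57BL/6. Both groups carry a time of 38 weeks in the labels: 38w, with 145 cells of the replicates RepI (70 cells) and RepL (75 cells), and 38wUW, with 165 cells of RepM (82 cells) and RepN (83 cells). UW is not spelled out in the labels, and which group had been wounded is open, so differences are given as 38w against 38wUW. The study's methods describe independent experiments on several biological replicates, but the labels do not tie the replicates used here to single mice or to pools, so p-values measure only the spread between these replicates.

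Amino acid carriers work in teams. Sodium-coupled carriers of the Slc38 and Slc1 families load cells with glutamine and other neutral amino acids. Exchangers of the Slc7 family trade these for leucine, cationic amino acids or cystine, and most of them reach the plasma membrane only when bound to the heavy chain CD98, the product of Slc3a2. The first members of the Slc16 family carry lactate, pyruvate and ketone bodies together with a proton. Of these, MCT1 (Slc16a1) and MCT4 (Slc16a3) need the partner basigin (Bsg). Other Slc16 members carry aromatic amino acids, thyroid hormone or unknown substrates. Several of the genes respond to amino acid shortage through the transcription factor Atf4, which binds a C/EBP-ATF response element. In epidermis, growing basal cells, lipid-making sebocytes and cornifying cells differ in what they need from these carriers.

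Upstream sequence is shown for 2 genes: Slc7a11, because it is a known target of Atf4, and Slc16a1, because it carries a result on cell class below. RefSeq start sites (GRCm38.p6) were matched by symbol for 31 of the 40 genes, and 250 bases before to 50 bases after each start were searched on both strands for TGATGNAA, the Atf4 response element, and for the palindrome CACGTG, an E-box. Capitals mark the match.
Slc7a11: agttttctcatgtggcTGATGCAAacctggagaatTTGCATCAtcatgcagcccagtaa
Slc16a1: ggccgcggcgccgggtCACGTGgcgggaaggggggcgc
These lie at chr3:50443637-50443695 on the minus strand (Slc7a11) and chr3:104638448-104638485 on the plus strand (Slc16a1), both upstream of the RefSeq start and outside the GENCODE gene. In Slc7a11 the element occurred 2 times, on opposite strands, with the first match beginning 66 bases before the start. TGATGNAA was found for 2 of the 31 genes, Slc7a11 and Slc1a4, and for 4.51% of the 27025 genes with a window. CACGTG was found for 7 of the 31 and for 8.09% of all. A match is only a run of letters, and binding was not measured.

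Depth per cell lay between 11711 and 721564 reads, with a median of 61294, and replicate sums from 5472070 (RepM) to 12946742 (RepN). RepI came from plates C114 (53 cells) and C118 (17 cells), and the others from 1 plate each. Plate C114 stood apart from the other 4: the median cell there gave 31.6% of its reads to ribosomal protein genes, against 3.60% to 6.76%, and 2.77% to mitochondrial genes, against 9.69% to 33.8%. On C114, 11 wells are named by 2 cells each, and 13 cells there carry the suffix IDTILL, which the labels do not explain. Another 2 libraries, in RepL and RepN, carry the suffix MBULK, which is not explained either. The study also describes mini-bulk libraries of many sorted cells, and whether these 2 are such is open. They were counted as cells here and left out in an alternative. The keratin gene Krt14 had a read in most cells of each class described below, from 72.7% (interfollicular differentiated) to 98.9% (basal). Krt14 is itself a marker of the basal class, so its share there follows in part from how the class was made. Of markers of other cell types, 2 of 8 immune markers were measured and summed to 1.28 to 2.93 CPM (reads scaled to a common library total) by replicate, 3 of 6 melanocyte markers to 7.96 to 15.1 CPM, and 5 of 6 fibroblast markers to 8.42 to 62.7 CPM, with the highest sum in RepI. What these cells add to the values below was not tested. Of the 2 endothelial markers measured, Pecam1 was not low: it gave nearly all of a sum between 1264 and 8773 CPM and had a read in 100% of the cells of each class described below, whereas Kdr was close to 0.

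Together the 40 genes held 29264 reads, which was 616, 1026, 871 and 969 CPM in RepI, RepL, RepM and RepN. The Slc38 family took 58.9% of them, and its share by replicate ran from 46.0% in RepI to 66.2% in RepL. Slc16 took 13.1%, Slc3a2 alone 11.3%, Slc7 8.69%, Slc36 4.26%, Slc1 2.37% and Slc43 1.34%. Only 4 of the 40 genes had a read in most of the 310 cells, and 26 had one in fewer than 50 cells. With each cell thinned to 20000 reads, which 277 cells reached, a cell showed a median of 4 to 5 of the 40 genes by replicate, and between 0 and 11 of them. For 10 genes a single cell held over 30% of all reads.

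**Figure D1:**
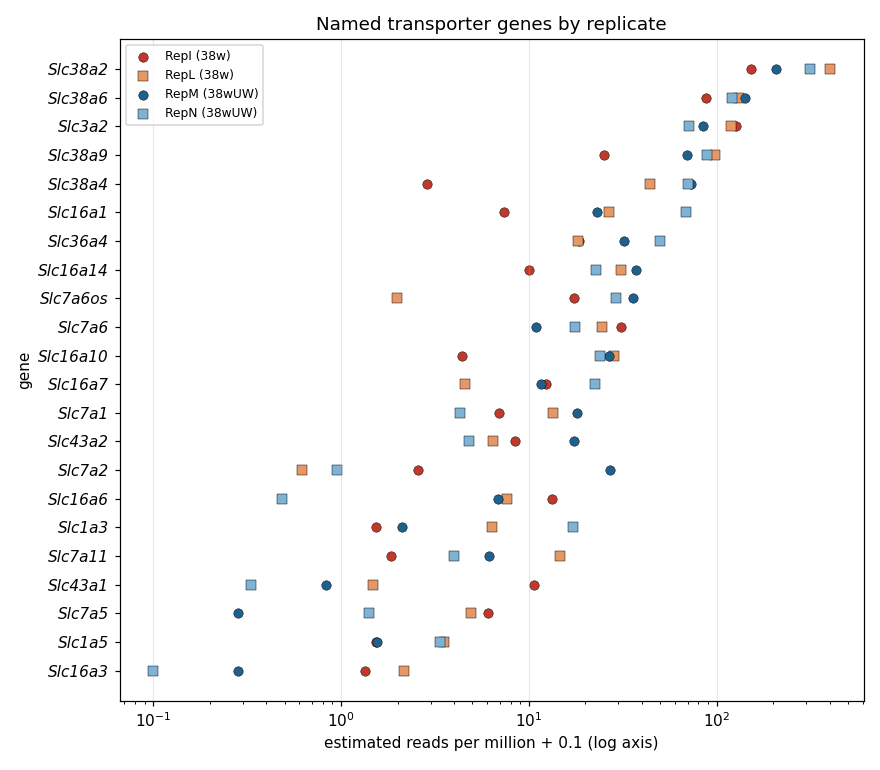
Level of the 22 named genes in each replicate, as CPM plus 0.1 on a log axis, with red and orange for 38w and blue for 38wUW. Slc38a2 lies between 152 and 400 CPM in all 4 replicates, and Slc38a4, Slc16a1 and Slc16a10 are lowest in RepI.

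The most abundant gene was Slc38a2, which encodes SNAT2, a sodium-coupled carrier of glutamine and other small neutral amino acids that cells raise when amino acids run short. Its level was 152, 400, 206 and 314 CPM in RepI, RepL, RepM and RepN, so that the highest and the lowest replicate were both of 38w. Per length of exon it also came first, with a mean of 57.5 CPM per kilobase of exon (RPKM), ahead of Slc3a2 with 33.1 RPKM and Slc38a6 with 17.8 RPKM. At 20000 reads a cell, Slc38a2 was found in 55.9% of RepI cells and 54.3%, 54.7% and 60.0% of those of the other replicates in the same order, a narrower spread than that of the CPM. Slc38a6, a less studied relative, had 87.7, 131, 141 and 121 CPM in RepI, RepL, RepM and RepN. It was found in 58.7% to 68.6% of thinned cells by replicate.

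Slc38a9 encodes a lysosomal carrier that reports arginine to the growth kinase complex mTORC1. It had 25.0, 97.7, 69.4 and 88.9 CPM in RepI, RepL, RepM and RepN. RepI was thus the low replicate, and the groups overlapped. Slc38a4 (SNAT4), an imprinted gene best known from liver and placenta, had 2.78, 44.1, 72.7 and 70.3 CPM in RepI, RepL, RepM and RepN. Both 38w values lay below both 38wUW values, but a single cell of RepN held 33.4% of all Slc38a4 reads, and without it RepN had 29.3 CPM and the groups overlapped. The remaining 5 Slc38 genes lay under 6 CPM on average, with Slc38a10 highest at 5.75 CPM.

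Slc3a2, the CD98 heavy chain, was found in 255 of 310 cells, the highest number among the 40 genes. Its level was 126 and 118.998 CPM in the replicates of 38w against 84.6 and 70.8 CPM in those of 38wUW, and the groups did not overlap. Within RepI it was 142 CPM on plate C114 and 49.7 CPM on C118. The light chains that use it were far lower. Slc7a6, which exchanges cationic for neutral amino acids, was the highest of them, with 31.0, 24.3, 10.8 and 17.6 CPM in RepI, RepL, RepM and RepN, again without overlap. On the RepI plates it was 35.1 CPM on C114 and 11.6 CPM on C118, the latter inside the range of 38wUW. Slc7a5, the leucine exchanger LAT1, had 5.96 and 4.83 CPM in 38w against 0.183 and 1.31 CPM in 38wUW, from 104 reads in 26 cells, of which 1 cell of C114 held 35.6%. Its level was 7.0 CPM on C114 and 1.16 CPM on C118. Slc7a11, the cystine-glutamate exchanger, had 1.74, 14.6, 6.03 and 3.89 CPM, and its high value in RepL fell to 3.25 CPM without 1 cell. At 20000 reads, Slc3a2 was found in 49 of 70 cells with a light chain (70.0%) and in 123 of 207 cells without one (59.4%). By plate the first share was the higher one throughout, but by under 3 percentage points on C119 and C128, so that heavy and light chains were not confined to the same cells at this depth.

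The cationic amino acid carriers Slc7a1 and Slc7a2 work without the heavy chain. Slc7a1 was spread over 73 cells, with 6.88, 13.3, 17.9 and 4.17 CPM in RepI, RepL, RepM and RepN, and the groups overlapped. Slc7a2 was nearly a gene of 1 replicate: RepM had 27.0 CPM, RepI 2.47, RepL 0.517 and RepN 0.850. Of its 186 reads, 1 cell of RepM held 38.2%. Slc7a6os, the neighbour gene, had 17.3 and 1.90 CPM in 38w against 35.8 and 28.9 CPM in 38wUW, and without its top cell RepM fell to 10.8 CPM, inside the range of 38w.

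The sodium-coupled Slc1 carriers were scarce. Slc1a5 (ASCT2), a glutamine and serine exchanger, had 1.44, 3.45, 1.46 and 3.24 CPM in RepI, RepL, RepM and RepN. Slc1a3 (GLAST), a glutamate carrier, had 1.44, 6.28, 2.01 and 17.2 CPM, but 67.7% of its 284 reads came from 1 cell of RepN, and without that cell RepN had 2.33 CPM. Neither gene separated the groups. Slc36a4, a lysosomal and membrane carrier of proline and tryptophan, had 18.4 and 18.1 CPM in 38w against 32.2 and 49.9 CPM in 38wUW. The 2 plates of RepI lay far apart, at 5.12 CPM on C114 and 80.2 CPM on C118.

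Of the proton-coupled monocarboxylate carriers, Slc16a1 (MCT1), which takes up or releases lactate, was the highest, with 7.30, 26.5, 22.8 and 69.0 CPM in RepI, RepL, RepM and RepN. Slc16a7 (MCT2), with a higher affinity for pyruvate, had 12.2, 4.48, 11.5 and 22.3 CPM, and 1 cell of C118 held nearly all of its RepI reads, without which RepI had 0.206 CPM. Slc16a3 (MCT4), the lactate exporter of glycolytic cells, had 25 reads in all, in 8 cells, at 1.23, 2.07, 0.183 and 0 CPM. The glycolytic enzyme gene Ldha had 1097, 505, 434 and 342 CPM in the same order. Basigin, the partner of MCT1 and MCT4, was abundant, with 258 CPM in RepI and 80.8 to 88.7 CPM in the others. At 20000 reads it was found in 28 of 43 cells with Slc16a1 (65.1%) and in 160 of 234 without (68.4%). The plates differed in this order: the share was higher in cells with Slc16a1 on C114 (100% against 89.4%), C119 (75.0% against 58.1%) and C128 (90.9% against 73.6%), and lower on C118 (33.3% against 57.1%) and C129 (41.2% against 60.3%), with 3 to 17 such cells a plate.

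Other Slc16 members differ in substrate. Slc16a14, whose substrate is not settled, had 9.97, 31.0, 37.3 and 22.6 CPM. Slc16a10 (TAT1), a carrier of tyrosine and tryptophan, had 4.29, 28.3, 26.8 and 23.9 CPM, with RepI low. Without its top cell RepM had 13.4 CPM. Slc16a6, linked to ketone body export, had 13.3 and 7.58 CPM in 38w against 6.73 and 0.386 in 38wUW. From the Slc43 family, which carries branched-chain and other large neutral amino acids, Slc43a2 (LAT4) had 8.35, 6.37, 17.4 and 4.71 CPM. Its relative Slc43a1 (LAT3) had 10.6 and 1.38 CPM against 0.731 and 0.232, from reads in 15 cells, of which 43.2% lay in 1 cell of C114. Within RepI, Slc43a1 was at 12.9 CPM on C114 and 0 CPM on C118.

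To see which epidermal compartments used which carrier, each cell was put in the class whose 8 to 10 marker genes had the highest score, a range and not a sharp type. This gave 62 infundibular and duct cells (Krt79, Cst6, Defb6), 68 bulge cells (Krt15, Sox9, Postn), 35 sebaceous gland cells (Scd1, Mgst1, Plin2), 55 interfollicular differentiated cells (Krt10, Krtdap, Calm4) and 90 basal cells (Krt14, Krt5, Col17a1). In 56 cells (18.1%) the best score lay within 0.2 of the next, among them 11 of the 35 sebaceous gland and 13 of the 68 bulge cells. A class name stands for its marker list only. In the sebaceous gland class 5 of 8 markers had a median of 0, Dgat2 was found in fewer cells (45.7%) than in the infundibular and duct class (64.5%), and the basal markers Krt14 (97.1%) and Col17a1 (80.0%) were found in most cells. In the bulge class Cd34 (26.5%) and Lgr5 (25.0%) were found in few cells, and the study uses Postn as a marker of the infundibulum. Without Postn in the list, a choice made after the data were seen, 65 of the 68 bulge cells stayed in the class, and Slc38a2 and Slc16a10 were again higher there in all 4 replicates. Median reads per cell were alike, from 59532 to 65464. Within RepI, plate C118 held 3 of 5 bulge, 3 of 5 sebaceous gland and 0 of 11 infundibular and duct cells. It held 6 of 22 interfollicular differentiated and 5 of 27 basal cells. A class in RepI was thus also compared across plates. No transporter is among the markers. Levels in a class were compared with the other cells of the same replicate, as a description without a test, and a gene is named where the class was higher in all 4 replicates. Of the 33 genes that passed the low-count filter, that held for 2 in bulge cells (6.06%) and 2 in basal cells (6.06%). It held for 1 in infundibular and duct cells (3.03%), 4 in sebaceous gland cells (12.1%) and 3 in interfollicular differentiated cells (9.09%). Among all 11757 genes tested, 4.89% did so in bulge, 7.4% in infundibular and duct, 6.26% in sebaceous gland, 2.11% in interfollicular differentiated and 5.81% in basal cells. The bulge and basal shares thus lay near those of all genes, and the infundibular and duct share lay below.

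**Figure D2:**
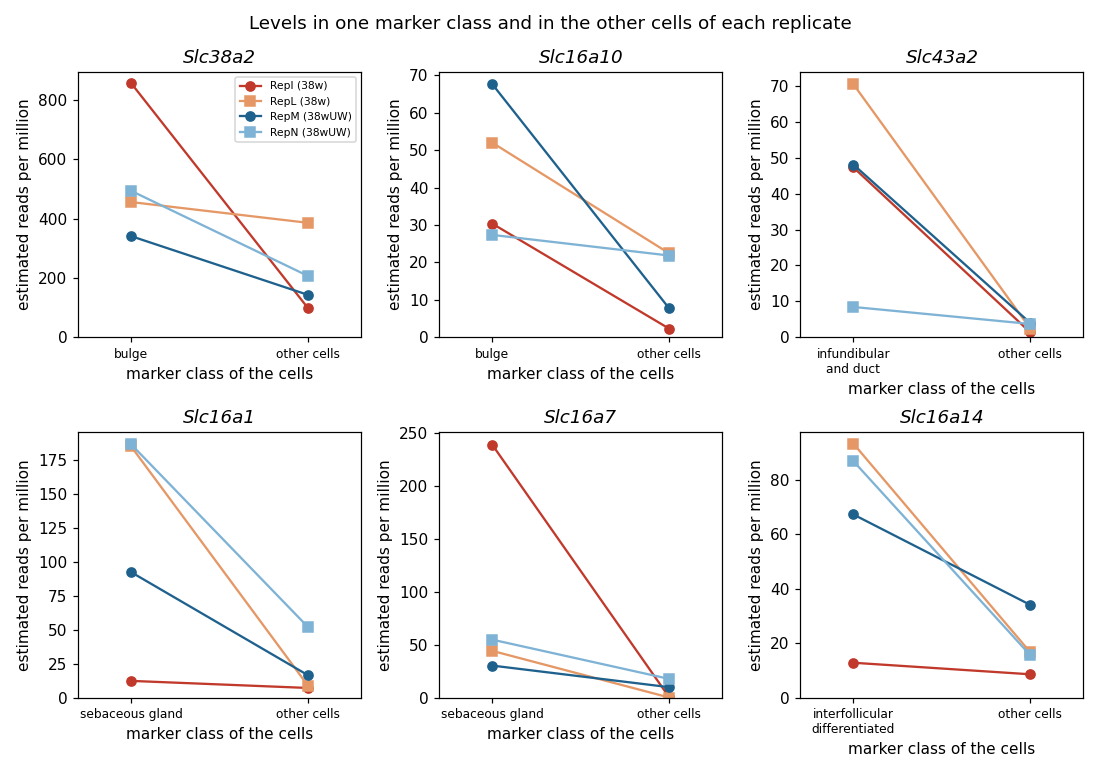
Level of 6 genes, in CPM on linear axes from 0, in the named marker class (left) and in all other cells (right) of each replicate, joined by a line. All lines fall from left to right, steeply for Slc43a2 in RepI, RepL and RepM, and hardly for Slc16a1 in RepI (12.2 against 7.04 CPM).

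Bulge cells, the lower follicle reservoir of stem cells, were high in Slc38a2, with 858, 456, 341 and 494 CPM in RepI, RepL, RepM and RepN against 98.1, 386, 143 and 207 CPM in the other cells. At 20000 reads, 44 of 57 bulge cells (77.2%) had a Slc38a2 read, against 112 of 220 others (50.9%). Slc16a10 had 30.4, 52.0, 67.7 and 27.4 CPM in bulge cells against 2.29, 22.4, 7.69 and 21.8 CPM elsewhere. In RepI, 2 of the 5 bulge cells were on C114 and 3 on C118, whereas all RepI cells numbered 53 and 17 there. Over all cells of a plate, Slc16a10 had 0.75 CPM on C114 and 20.8 CPM on C118, and Slc38a2 102 and 384 CPM. The part of the plates in the RepI values was not tested. The class also held 75.5% of the Slc38a4 reads, of which 44.2% lay in 1 cell: 157 CPM in RepL, 169 in RepM and 150 in RepN against 16.1, 27.9 and 22.7 CPM elsewhere. In the 5 bulge cells of RepI it had no read, while the other RepI cells had 2.99 CPM. By share of thinned cells it was found in 20 of 57 bulge cells and 12 of 220 others. RepI and RepL held 5 and 12 bulge cells and RepM and RepN 22 and 29. The part of class makeup in the group values of Slc38a4 was not tested.

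Infundibular and duct cells, the upper follicle and the lining of the sebaceous duct, stood out for Slc43a2: 47.3, 70.5, 48.1 and 8.44 CPM in RepI, RepL, RepM and RepN against 1.33, 2.38, 3.95 and 3.71 CPM elsewhere. Their 62 cells held 72.0% of its reads, 34 of them with a read, and at 20000 reads 19 of 58 (32.8%) had one, against 7 of 219 others (3.20%). The same class had the least Slc38a2, lower than the other cells in all 4 replicates, with 49.8, 2.94, 133 and 85.1 CPM against 171, 425, 238 and 376 CPM. All 11 RepI cells of the class were on C114, so in RepI the comparison also spanned plates. Over all cells of a plate, Slc38a2 had 102 CPM on C114 and 384 CPM on C118, and Slc43a2 9.65 and 2.33 CPM. What the plates add to the RepI values was not tested. Thinned shares of cells with Slc38a2 were 27.6% in this class and 63.9% in the others.

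Cells of the sebaceous gland class, named for the gland that makes sebum lipid, were high in the monocarboxylate carriers Slc16a1 and Slc16a7. Slc16a1 had 12.2, 185, 92.3 and 186 CPM there against 7.04, 8.64, 16.4 and 51.8 CPM in the other cells, and at 20000 reads 16 of 34 cells (47.1%) against 27 of 243 (11.1%) had a read. Slc16a7 had 239, 44.1, 30.2 and 54.7 CPM against 0.217, 0, 9.79 and 17.6 CPM. The same C118 cell held 47.3% of the class's Slc16a7 reads and carried the value of RepI, and 6 of 34 thinned cells had it, against 8 of 243 others. Slc1a5 was higher in all 4 replicates too, at 10.6 ± 7.54 CPM (SD, n = 4) against 1.40, but from 44 reads in 8 cells, and 50% of these reads lay in 1 cell. Slc3a2 was the fourth such gene, though 110 ± 26.0 CPM against 99.1 CPM was within the spread between replicates.

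Interfollicular differentiated cells, which build the cornified layer, had more Slc16a14 than the rest, with 12.8, 93.3, 67.3 and 86.9 CPM in RepI, RepL, RepM and RepN against 8.54, 16.6, 34.0 and 15.5 CPM. Slc16a6 (19.3 ± 12.2 CPM, SD, n = 4, against 4.20 CPM) and Slc43a1 (8.82 ± 11.3 CPM against 0.996 CPM) followed the same order in each replicate, on 117 and 94 reads. The class held 79.7% of the Slc43a1 reads, and 54.3% of those lay in 1 cell. RepI and RepL had 22 and 19 such cells and RepM and RepN 9 and 5, and what this adds to the group values of both genes was not tested. In basal cells, which rest on the basement membrane and divide, Slc7a6 had 58.6, 38.1, 18.8 and 18.1 CPM against 13.4, 12.9, 8.85 and 17.5 CPM elsewhere. RepI and RepL had 27 and 28 basal cells and RepM and RepN 19 and 16, and the basal markers summed to 22900 and 7750 CPM against 3174 and 2911 CPM. Their part in the group values of Slc7a6 was not tested. Slc16a9, a carnitine carrier outside the naming rule and shown after its values were seen, was found at 20000 reads in 11 of 77 basal cells and 1 of 200 others.

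Plates differed in several of these genes. Slc38a9 was found in 5 of 51 thinned cells of C114 (9.80%, 95% Wilson interval 4.26% to 21.0%), 5 of 17 on C118 (29.4%), 51 of 70 on C119 (72.9%), 36 of 64 on C128 (56.2%) and 29 of 75 on C129 (38.7%). Its CPM was low on both plates of RepI, at 23.4 on C114 and 32.1 on C118, against 69.4 to 97.7 on the others. Slc16a10 was found in 0 of 51 cells of C114, which allows a share of up to 5.88%, and in 10% to 28.0% of the cells of the other plates. Its CPM on C114 was 0.75, against 20.8 to 28.3 on the others. Slc16a7 had no read on C114. The shares of Slc38a2, Slc38a6 and Slc3a2 on C114 were 51.0%, 58.8% and 58.8%, within the range of the other plates or close to it. By CPM, however, Slc38a2 was lowest on C114, at 102 against 206 to 400 on the others. The intervals cover counting error only, since reads without molecular identifiers are not independent molecules.

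**Figure D3:**
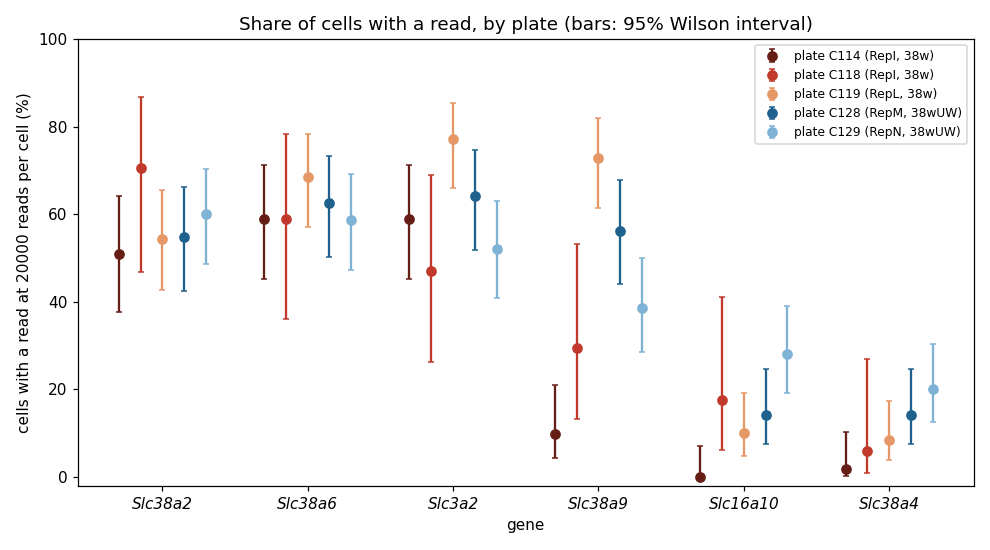
Share of cells with at least 1 read of 6 genes after thinning to 20000 reads per cell, by plate, with 95% Wilson intervals for counting error. For Slc38a9 the interval of C114 (9.80%, up to 21.0%) lies below those of C119, C128 and C129, whereas for Slc38a2 and Slc38a6 the intervals of all 5 plates overlap.

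Tested across replicates, no transporter gene passed. Of 33 genes tested, 0 had an adjusted p under 0.05 by edgeR's quasi-likelihood test (n = 2 against 2), and 0 of all 11757 genes did (0%). At an unadjusted p under 0.05 there were 2 transporters, against 8.07% of all genes, and DESeq2 called 0 transporters at an adjusted p under 0.05, against 0.563% of all genes. The tested transporters had a median log2 fold change of 0.11, beside 0.12 for all genes, with 18 above 0 and 15 below. In bulk sums, fewer cells of a type and less RNA per cell cannot be told apart.

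The 2 genes under the unadjusted threshold were Slc43a1 (log2 fold change 3.95 ± 1.54 SE, edgeR adjusted p = 0.617) and Slc7a5 (3.0 ± 1.38, edgeR adjusted p = 0.617), the large neutral amino acid carriers LAT3 and LAT1. Their levels were given above, and in both a single C114 cell held over 30% of the reads. Slc7a2 had the lowest value, at -2.93 ± 1.49 (adjusted p = 0.637), with RepM high and RepN low. Slc3a2 stood at 0.90 ± 0.82 (adjusted p = 0.779), Slc7a6 at 1.21 ± 0.93 (0.728), Slc38a4 at -1.38 ± 1.07 (0.733), Slc16a1 at -1.20 ± 0.97 (0.747) and Slc38a2 at 0.33 ± 0.89 (0.933), all by edgeR. With standard errors near 1 on the log2 scale, differences of that size and well above it went uncalled in these replicates, as for Slc43a1 at 3.95. A gene that did not pass may thus still differ by several log2 units.

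The 2 groups did not overlap for 12 of the 33 genes, or 36.4%, against 38.8% of all genes. Both 38w replicates were the higher for 8 of the 33 (24.2%), beside 12.6% of all genes. These were Slc3a2, Slc7a5, Slc7a6, Slc43a1, Slc16a6, Slc16a9, Slc16a11 and Slc1a4. Both were the lower for 4 of the 33 (12.1%), beside 26.2% of all genes: Slc38a4, Slc38a7, Slc36a4 and Slc7a6os. The difference between these shares was not tested. Leaving RepL out of the 38w group, which leaves RepI to stand for it, brought Slc38a4 (-4.34, adjusted p = 0.00276) and Slc43a1 (4.87, adjusted p = 0.0202) under the threshold by edgeR, where 9.44% of all 12907 genes were called, against 2 of 35 transporters. Over the alternatives that tested them, 15 for Slc38a4 and 8 for Slc43a1, adjusted p ran from those values up to 1.0, and neither gene passed in another of these.

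**Figure D4:**
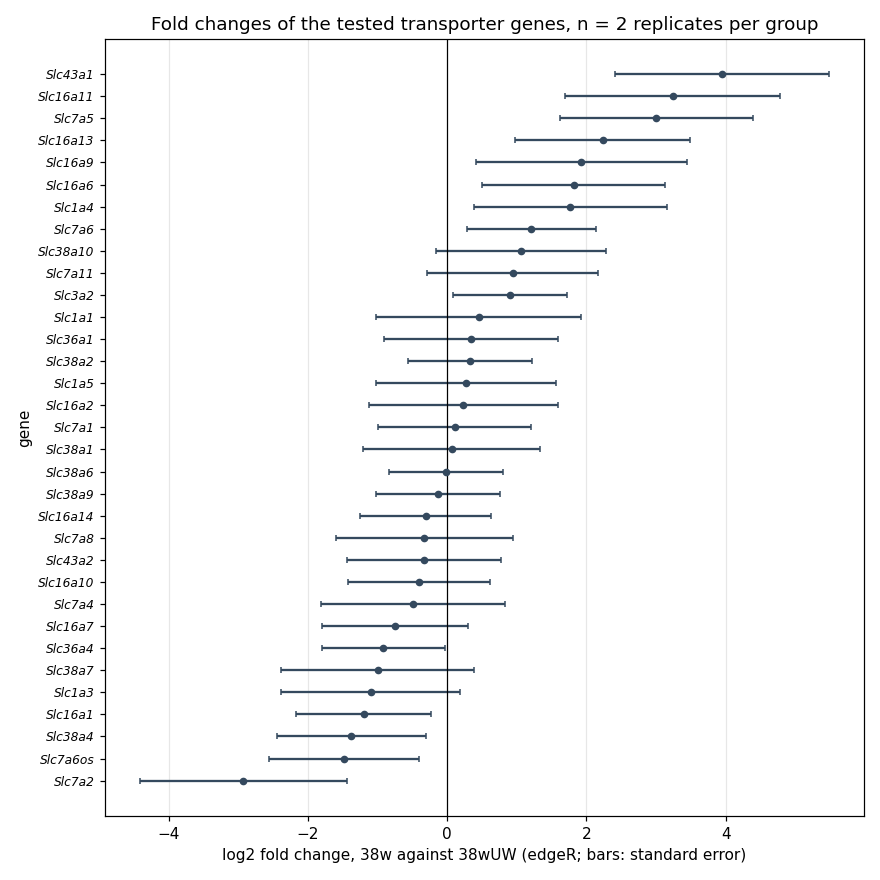
Log2 fold change of the 33 tested genes, 38w against 38wUW, with standard errors derived from the edgeR F statistic (n = 2 replicates per group). Slc43a1 lies highest at 3.95 and Slc7a2 lowest at -2.93, and none passed the adjusted threshold.

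The pathways around the carriers were read from 5 lists of 142 genes, of which 117 were tested. No list gene passed by edgeR, with 9 at an unadjusted p under 0.05, beside 8.07% of all genes. By DESeq2 1 passed, beside 0.563% of all genes: Cth, the enzyme that makes cysteine from cystathionine, with 12.1 and 35.9 CPM in 38w against 1.10 and 0.850 CPM in 38wUW (DESeq2 adjusted p = 0.00146, edgeR adjusted p = 0.592). Of 28 tested genes of the Atf4 response, 18 lay above 0 and 10 below, with a median log2 fold change of 0.68, beside 0.12 for all genes. Without overlap, 4 of these 28 were higher and 4 lower in 38w, beside 12.6% and 26.2% of all genes. No list was tested as a set. Atf4 itself had 74.8 and 24.3 CPM in 38w against 28.0 and 45.6 CPM, and Asns, its target that makes asparagine, 26.0 and 16.4 against 17.9 and 25.3 CPM. Phgdh, the first enzyme of serine synthesis, had 191 and 46.0 CPM against 33.8 and 14.3 CPM (2.56 ± 0.98, edgeR adjusted p = 0.617).

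Among 31 genes of amino acid sensing at mTORC1, 22 lay above 0 and 9 below, with a median of 0.54. Here too 4 of the 31 were higher and 4 lower in 38w without overlap, beside 12.6% and 26.2% of all genes. Lamtor2 and Lamtor4, scaffold subunits on the lysosome, were under the unadjusted threshold, both highest in RepI. The 18 lactate and pyruvate genes split 10 to 8, with a median of 0.17 and none under it. Of 20 genes of glutamine, glutamate and cystine use, Gpt (2.88 ± 1.06) and Arg1 (-4.50 ± 1.66) were under it (edgeR adjusted p = 0.617 for both). Among 22 amino acid and peptide carriers of other families, Slc6a14, a broad carrier of neutral and cationic amino acids, had 10.9 and 13.8 CPM in 38w against 124 and 100.025 CPM in 38wUW (-2.94 ± 0.90, edgeR adjusted p = 0.617). Slc15a2, the peptide carrier, had 0.206 and 2.04 CPM against 7.31 and 42.1 CPM (-4.24 ± 1.39, edgeR adjusted p = 0.617). Slc25a29, a mitochondrial carrier of basic amino acids, lay the other way, with 20.1 and 2.24 CPM against 1.46 and 1.08 CPM (3.40 ± 1.35, edgeR adjusted p = 0.617). In all 3 the groups did not overlap, which held for 38.8% of all genes. Over the 22 genes of this list, 3 were higher and 4 lower in 38w without overlap, beside 12.6% and 26.2% of all genes.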

How the data were processed

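Full-length Smart-seq2 libraries of 310 samples were used, each taken as 1 sorted cell. The authors quantified reads with Salmon 0.13.1 on the GRCm38 (mm10) transcriptome, and deposited unscaled estimated counts for each gene in each cell; 3.60% are not whole numbers. Here the study's filter on genes found in under 5 cells was applied, which left 13956 of 14068 genes. Doublets were not called, since wells were meant to hold 1 cell.

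Replicate sums, rounded to integers, entered edgeR 4.0.16 (R 4.3.3; TMM, filterByExpr, quasi-likelihood test, Benjamini-Hochberg adjustment, threshold 0.05), with DESeq2 1.42.0 as an alternative. Standard errors given with edgeR were derived as the absolute log2 fold change divided by the square root of the test's F statistic. The script was tested on simulated data. Levels are CPM of a sum, and lengths for RPKM came from GENCODE exons. Shares were computed on cells thinned to 20000 reads (33 cells were shallower), with 95% Wilson intervals, and a count of 0 was read as up to 3 counts. Class scores used log-scaled counts per 10000 reads. Named genes were the 16 highest by mean CPM, those at an unadjusted p under 0.05, and 8 preset carriers, 22 in all. Members, lists and markers were chosen with earlier results of these data known. The batch tags of the labels disagree for 2 plates and entered only as alternatives. Reads of overlapping or antisense genes cannot be told apart without strand, which among the named genes touches Slc1a3, Slc7a2, Slc7a5, Slc7a11, Slc16a1, Slc16a6, Slc16a7, Slc16a10, Slc38a9 and Slc43a2. The 15 alternatives changed normalization, tool, filter, weighting, depth, plates, batch, suffix cells or replicates.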

Additional observations from a re-analysis of the deposited data

How the results depend on the processing

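The number of transporter genes called was 0 in all alternatives but one: leaving out 1 replicate gave 0 to 2, with the 2 (Slc38a4 and Slc43a1) only without RepL. List genes called were 1 with DESeq2 (Cth) and, leaving out 1 replicate, 0 to 17, with 17 of 122 without RepL and 2 without RepI. Those fits rest on 1 replicate in a group, assumed to vary like the others. Over all genes they called 1218 of 12907 without RepL and 187 of 12255 without RepI.

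Of 302 refits of the named genes' log2 fold changes, 39 in 13 of 21 genes changed sign, and none of these genes had passed. The cause was not tested. Leaving out 1 replicate gave, from lowest to highest, -0.43 to 0.85 for Slc38a2, -0.24 to 0.22 for Slc38a6, -1.32 to 0.53 for Slc38a9, -1.24 to 0.28 for Slc16a14, -2.21 to 0.39 for Slc16a10, -0.60 to 1.54 for Slc7a1, -1.0 to 0.92 for Slc43a2, -4.48 to 1.11 for Slc7a2, -1.15 to 1.78 for Slc7a11, -0.38 to 0.95 for Slc1a5 and -2.39 to 1.13 for Slc1a3. Without plate C114, Slc38a6 stood at 0.037, Slc36a4 at 0.53, Slc16a10 at 0.21, Slc16a7 at 1.39, Slc7a1 at -0.23 and Slc1a5 at -0.062. Without C118, Slc38a6 stood at 0.042, and without the suffix cells at 0.0097. With DESeq2 it was 0.059 and with DESeq2 size factors 0.056. With equal weight per cell, Slc38a2 was -0.022, Slc38a9 0.20, Slc16a7 0.023 and Slc7a11 -1.0, and on thinned cells Slc38a9 was 0.20, Slc16a7 0.054 and Slc7a11 -1.76. With plates as units, Slc36a4 was 0.0056, Slc16a7 0.78, Slc7a1 -0.17 and Slc1a5 -0.059. With the batch tag as a block Slc1a5 was -0.0358, and with the alternative tag Slc7a1 was -0.0355.

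Keeping only cells whose best class score led by 0.2 moved 1 of 12 class levels beyond its SD (Slc16a1 in sebaceous gland cells, to 219.9 CPM over the 3 replicates that kept 5 cells) and reversed 0. Slc16a3 was not tested in the main fit. The replicate letters differ between the groups and pair nothing. The batch tags, which both groups share, were used as a block over plates, and called 0 transporter and 0 list genes with either tag. Depth limits the scarce genes, 26 of 40 being found in fewer than 50 cells.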
